A study of Homo sapiens with 18 samples.

Results

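This report describes 10 regulators of cohesin in HAP1 cells: WAPL, PDS5A, PDS5B, NIPBL, MAU2, CDCA5, ESCO1, ESCO2, HDAC8 and SGO1. They were chosen by name for their roles in loading, releasing, acetylating and protecting cohesin, and all 10 were found among the 20329 genes counted. HAP1 is a near-haploid human cell line that was derived from a leukemia, and its parental cells carry a mutant p53 that every group shared. RNA was sequenced in 18 samples of 6 groups of 3. Set A held control cells (control A), ΔWAPL clone 3.3, ΔSCC4 cells and ΔWAPL/ΔSCC4 double knockout cells that were made by removing SCC4 from ΔWAPL clone 3.3. Set B held control cells (control B) and ΔWAPL clone 1.14. SCC4 is the protein name of MAU2, and SCC2 is that of NIPBL. WAPL was disrupted by inserting a Blasticidin cassette and MAU2 by inserting a Puromycin cassette at a CRISPR cut. Each ΔWAPL group is 1 clone, and the labels name 1 ΔSCC4 and 1 double knockout line. The labels do not say that the 3 samples of a group came from separate cultures, so the p-values measure the spread between samples of a line and not the spread between lines.

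Cohesin is a ring that embraces DNA, holds sister chromatids together and forms chromatin loops. NIPBL and MAU2 form the loader that brings cohesin onto DNA, and WAPL, together with PDS5A or PDS5B, opens the ring to release it. The acetyltransferases ESCO1, throughout interphase, and ESCO2, during DNA replication, modify the SMC3 subunit, which lets CDCA5 (sororin) bind PDS5 and hold off WAPL. HDAC8 removes the acetyl group after mitosis, and SGO1 (shugoshin) shields cohesin at centromeres until anaphase.

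The guide sequences show where the genes of the release factor and of the loader subunit were opened, and therefore which part of each transcript lies before the insertion. Each line gives the genomic target without the cloning overhang and the first G of the guide, read 5′ to 3′, with the adjoining PAM in capitals. The genome has a G at that position at both sites, so the match of each guide includes it as well. Coordinates are those of the printed bases before the PAM.
WAPL guide: cgttccatagtatcctgtaTGG
MAU2 guide: tacgggcctcgatgcgctgCGG
Each had 1 exact match in GRCh37. The WAPL target lay at chr10:88259864-88259882 on the plus strand, in exon 3 of 19 of WAPL, which is read from the minus strand. A cut 3 bases from the PAM falls after coding base 1120 of 3570, in codon 374 of 1190, or 31.4% into the coding sequence. The MAU2 target lay at chr19:19431849-19431867 on the minus strand, in exon 1 of 19 of MAU2, which is read from the plus strand. Its cut falls after coding base 183 of 1839, in codon 61 of 613, or 10.0% into the coding sequence. Counts were made over the whole gene, so reads before and after the insertion were added together.

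Libraries held 10007646 to 20711127 reads on genes. Levels are given in CPM, the reads of a gene per 1000000 reads on genes after TMM scaling. Differences are log2 fold changes with a standard error (SE) from edgeR's quasi-likelihood test, and a gene passed when its Benjamini-Hochberg adjusted p over all genes tested was below 0.05. All 10 members passed the filter on low counts in each of the 10 comparisons. Markers of blood cells were near absent: of PTPRC, SPI1, CD34, CD33 and GATA1, 0 of 5 reached the filter, and their highest level in any sample was 0.48 CPM, in CD33. In bulk RNA fewer cells of a cell cycle phase and less RNA per cell cannot be told apart.

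**Figure D1:**
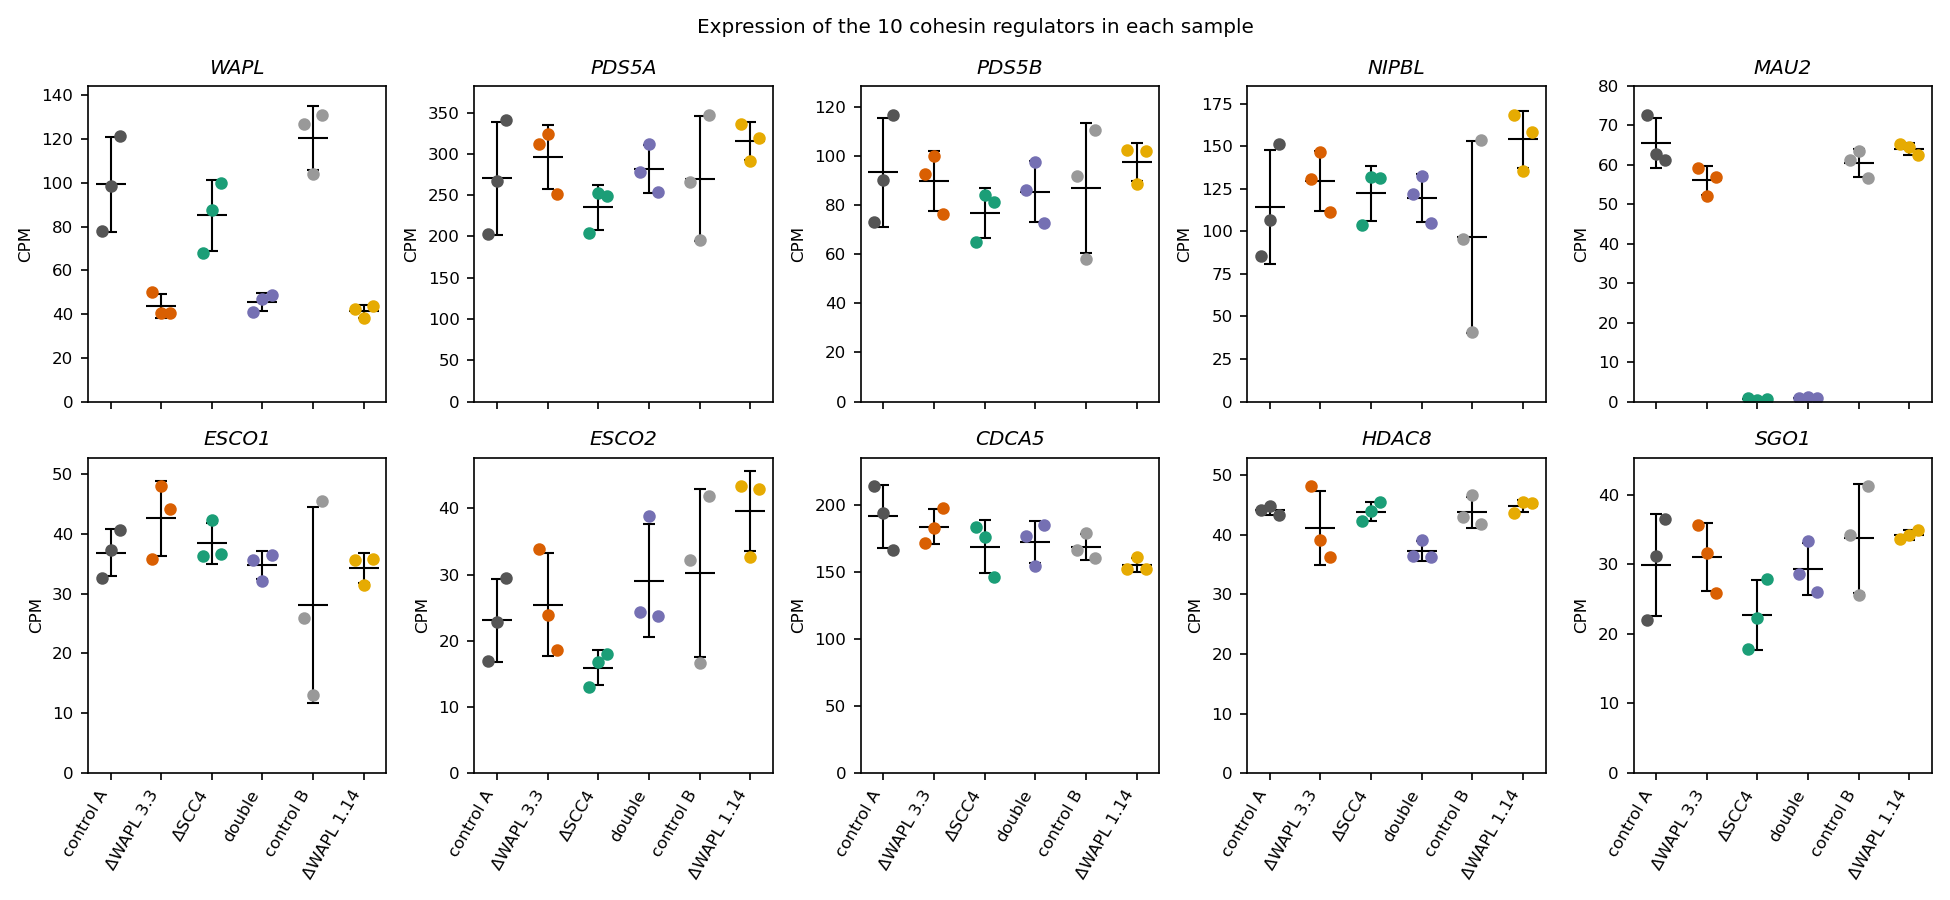
CPM of each regulator in the 18 samples, 1 panel per gene, with the 6 groups along the x axis and CPM from 0 on the y axis. Points are samples in the order of their replicate numbers, and bars are the mean and SD of 3. WAPL lies between 38.0 and 50.2 CPM in the 9 samples of the WAPL knockout lines and between 68.0 and 131 CPM elsewhere, and MAU2 lies at or below 1.04 CPM in the 6 samples without SCC4.

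The first question was how far the targeted transcripts fell. WAPL RNA fell to less than the level of every control but was not lost, whereas MAU2 RNA was almost gone. WAPL (chromosome 10, 88195013 to 88281549) was at 78.1, 98.5 and 121 CPM in control A and at 50.2, 40.5 and 40.3 CPM in ΔWAPL 3.3. In set B it was at 127, 104 and 131 CPM in control B and at 42.4, 38.0 and 43.5 CPM in ΔWAPL 1.14. Every knockout sample was below every control sample of its set. The same was true of 11.9% of all genes tested in clone 3.3 and 22.8% in clone 1.14. The log2 fold change of WAPL was -1.20 (SE 0.17, adjusted p = 0.000209) in clone 3.3 and -1.55 (SE 0.10, adjusted p = 7.44e-05) in clone 1.14. Both clones together, with the set as a covariate, gave -1.37 (SE 0.12, adjusted p = 1.01e-06), which is 2.58-fold lower. WAPL was the only member of 10 past the threshold in each of these fits, beside 8.07% of all genes tested in clone 3.3, 20.1% in clone 1.14 and 17.7% over both clones. Its difference between the clones was 0.37 (SE 0.22, adjusted p = 0.628), and it passed with an offset for the GC content of transcripts, added after the data were seen (0.41, adjusted p = 0.0276).

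MAU2 (chromosome 19, 19431638 to 19469563) was at 72.7, 62.7 and 61.3 CPM in control A and at 0.98, 0.51 and 0.62 CPM in ΔSCC4, where 5 to 15 reads were counted. In the double knockout it was at 0.91, 1.04 and 0.85 CPM, from 15 to 17 reads. No sample without SCC4 came near a control. MAU2 fell, with log2 fold changes of -6.49 (SE 0.23, adjusted p = 3.9e-07) in ΔSCC4 and -6.13 (SE 0.18, adjusted p = 4.94e-08) in the double knockout against control A, and -5.90 (SE 0.17, adjusted p = 2.57e-12) in the double knockout against ΔWAPL 3.3. It was the only member past the threshold in ΔSCC4 against control A, where 9.49% of all genes tested passed, and in the double knockout against ΔWAPL 3.3, where 10.6% passed. Between the double knockout and ΔSCC4 the MAU2 difference of 0.35 (SE 0.34, adjusted p = 0.464) rested on these few reads.

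In the double knockout the WAPL level was not distinguishable from that of its parent clone. It was at 41.0, 47.0 and 48.5 CPM there, overlapping the range of ΔWAPL 3.3, with a difference of 0.06 between the 2 lines and a 95% confidence interval from -0.22 to 0.33. Against control A it fell by 1.13 (SE 0.16, adjusted p = 0.00134), so that 2 of 10 members, WAPL and MAU2, passed beside 7.95% of all genes tested. ΔSCC4 held WAPL at 68.0, 87.4 and 100.1 CPM, overlapping control A. Against ΔSCC4, WAPL fell in the double knockout by 0.90 (SE 0.15, adjusted p = 0.000223).

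The next question was whether the remaining regulators changed when WAPL or SCC4 was lost. Taken against the controls, 0 of the 8 untargeted members passed the threshold in ΔWAPL 3.3, in ΔWAPL 1.14, over both clones, in ΔSCC4 or in the double knockout, and DESeq2 gave the same counts. For ΔSCC4 this changed when samples were compared by replicate number as a block: ESCO2, SGO1, PDS5B and CDCA5, as well as WAPL, then fell, in a fit in which 46.0% of all genes tested passed, and their values are given with that fit. At an unadjusted p under 0.05 edgeR counted, targeted genes included, 1 member in either ΔWAPL clone, 2 in ΔSCC4 and 3 in the double knockout. The 95% intervals show what these counts leave room for. In ΔWAPL 3.3 and in the double knockout against control A all 8 intervals lay within a 2-fold change either way, and 7 of 8 did in ΔSCC4. In ΔWAPL 1.14 only 5 of 8 did, and the widest, that of NIPBL, reached 1.60.

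**Figure D2:**
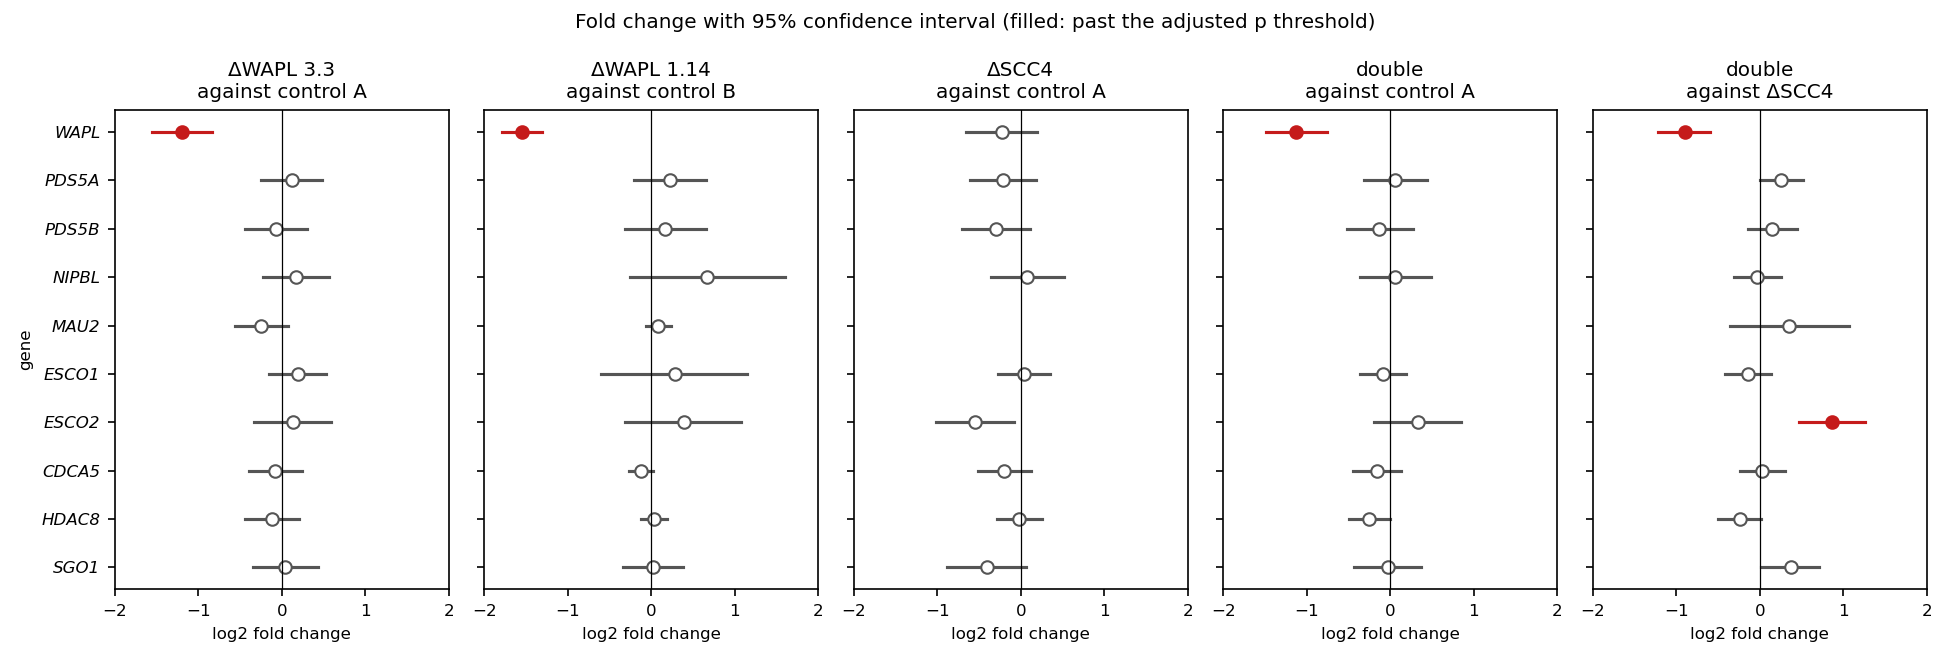
Log2 fold change (x axis) of each regulator (y axis) in 5 comparisons, with lines for the 95% confidence interval and filled points for genes past the adjusted p threshold. MAU2 against control A in ΔSCC4 (-6.49) and in the double knockout (-6.13) lies outside the axis and is not drawn. Apart from the targeted genes the only filled point is ESCO2 in the double knockout against ΔSCC4.

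PDS5A and PDS5B, the partners of WAPL in release, did not pass the threshold in either ΔWAPL clone, except under the settings named here. PDS5A (chromosome 4, 39824483 to 39979576) was at 203, 267 and 341 CPM in control A and at 312, 324 and 251 CPM in ΔWAPL 3.3. In set B it was at 266, 196 and 347 CPM in control B and at 336, 291 and 319.6 CPM in ΔWAPL 1.14. The groups overlapped in both sets, and the fit of both clones gave 0.18 (SE 0.14, adjusted p = 0.41), with a 95% interval from -0.12 to 0.47. Without control B replicate 3, its highest control sample, PDS5A passed in clone 1.14 at 0.44 (adjusted p = 0.0313). ΔSCC4 had PDS5A at 204, 253 and 249 CPM and the double knockout at 279, 312 and 254 CPM. Here every double knockout sample was above every ΔSCC4 sample, as was the case for 19.1% of all genes tested, but the difference of 0.26 (SE 0.12) did not pass (adjusted p = 0.13).

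PDS5B (chromosome 13, 33160589 to 33352157) had group means from 76.8 CPM in ΔSCC4 to 97.5 CPM in ΔWAPL 1.14. Its log2 fold change was -0.07 (SE 0.17) in ΔWAPL 3.3 and 0.16 (SE 0.21) in ΔWAPL 1.14, and the samples overlapped in both. With the GC content offset the direction turned in clone 1.14 and over both clones and PDS5B passed, at -0.17 (adjusted p = 0.0495) and -0.20 (adjusted p = 0.0164). It also passed in clone 1.14 with the replicate block added to the offset (-0.17, adjusted p = 0.0247). After division by transcript length, PDS5B made up 24.9% ± 0.6 (SD, n = 3) of the summed level of the 2 PDS5 genes in control A. In ΔWAPL 3.3 it made up 22.4% ± 0.3, and these samples did not overlap. The shares in ΔSCC4, at 23.7% ± 0.4, and in the double knockout, at 22.4% ± 0.8, did not overlap control A either. A lower share was thus seen in every knockout group of set A, also where WAPL was intact. In set B the shares were 23.4% ± 1.4 in control B and 22.8% ± 0.5 in ΔWAPL 1.14, which overlapped. These shares were not tested.

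NIPBL (chromosome 5, 36876871 to 37066515), the loader subunit that binds MAU2, did not pass the threshold when MAU2 was lost. It was at 85.4, 107 and 151 CPM in control A, at 104, 132 and 131 CPM in ΔSCC4, and at 122, 133 and 105 CPM in the double knockout. These 3 groups overlapped throughout. Its log2 fold change was 0.08 (SE 0.20, 95% interval -0.36 to 0.52) in ΔSCC4 and 0.06 (SE 0.19, 95% interval -0.36 to 0.49) in the double knockout against control A.

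NIPBL also showed the widest spread of the set. In control B it was at 95.7, 40.9 and 154 CPM, a range that held the values of most other samples, and in ΔWAPL 1.14 it was at 169, 136 and 158 CPM. The log2 fold change in clone 1.14 was 0.67 (SE 0.40, adjusted p = 0.263), and the groups overlapped. Leaving out 1 sample at a time moved it from 0.31 to 1.17, and it passed only without control B replicate 3, the highest control (1.17, adjusted p = 0.0246). In ΔWAPL 3.3 NIPBL was at 131, 147 and 111 CPM, with a log2 fold change of 0.17 (SE 0.19, adjusted p = 0.756), and the difference between the clones was -0.49 (SE 0.48, adjusted p = 0.815). When the clones were tested against each other, each relative to its own controls, none of the 10 members passed, while 2.65% of all genes tested did, and 1 member had an unadjusted p under 0.05.

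That member was MAU2. Its level in ΔWAPL 3.3, at 59.3, 52.1 and 57.0 CPM, was below all 3 samples of control A, as was the case for 11.9% of all genes tested. The difference of -0.25 (SE 0.15) did not pass (adjusted p = 0.451). In set B, MAU2 was at 61.3, 63.5 and 56.7 CPM in control B and at 65.3, 64.6 and 62.4 CPM in ΔWAPL 1.14, with a difference of 0.08 (SE 0.07, adjusted p = 0.406). The groups of set B overlapped. The differences of the clones from their controls thus had opposite signs, and the test between the clones gave -0.31 (SE 0.14, adjusted p = 0.43). With the GC content offset MAU2 passed in clone 1.14 at 0.18 (adjusted p = 0.0193). It also passed there with the replicate block added (0.18, adjusted p = 0.0228).

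Among the genes of the acetylation cycle, ESCO2 gave the one difference of an untargeted regulator past the threshold. ESCO2 (chromosome 8, 27629466 to 27670157), the acetyltransferase that acts during DNA replication, was at 12.9, 16.8 and 18.04 CPM in ΔSCC4 and at 24.4, 38.9 and 23.8 CPM in the double knockout. All double knockout samples were above all ΔSCC4 samples, which held for 19.1% of all genes tested. The log2 fold change was 0.87 (SE 0.19, 95% interval 0.47 to 1.26, adjusted p = 0.00259), or 1.82-fold. With WAPL it made 2 of 10 members past the threshold, beside 27.3% of all genes tested, so that a gene past the threshold was common in this comparison. ESCO2 passed under each of the 14 other settings tried, with log2 fold changes from 0.61 to 0.99 and adjusted p from 1.19e-07 to 0.0372. The lowest value came from leaving out double knockout replicate 2, the sample at 38.9 CPM.

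Control A lay between these groups, with ESCO2 at 17.0, 22.8 and 29.4 CPM, and overlapped both. Against it ESCO2 differed by -0.55 (SE 0.21, adjusted p = 0.147) in ΔSCC4 and by 0.33 (SE 0.23, adjusted p = 0.566) in the double knockout. The interaction, which asks whether removing SCC4 changed ESCO2 differently with and without WAPL, gave 0.75 (SE 0.35, adjusted p = 0.203). It passed with the GC content offset (0.80, adjusted p = 0.0228) and with offset and replicate block together (0.80, adjusted p = 0.0453), and PDS5B passed with the offset (0.34, adjusted p = 0.0345). Without the offset none of the 10 members passed that test, and none had an unadjusted p under 0.05, while 11.3% of all genes tested passed. ESCO2 was at 33.9, 23.8 and 18.7 CPM in ΔWAPL 3.3, overlapping control A. In ΔWAPL 1.14 it was at 43.4, 32.7 and 43.0 CPM beside 32.2, 16.6 and 41.9 CPM in control B. Its difference in clone 1.14 was 0.39 (SE 0.30, adjusted p = 0.373). With the replicate block this was 0.45 (SE 0.17, 95% interval 0.04 to 0.87) and did not pass (adjusted p = 0.0962).

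ESCO1 (chromosome 18, 19109245 to 19180845), the acetyltransferase that acts throughout interphase, did not pass in the comparison in which ESCO2 did. It was at 36.4, 42.4 and 36.6 CPM in ΔSCC4 and at 35.7, 32.1 and 36.5 CPM in the double knockout, which overlapped, with a difference of -0.14 (SE 0.13, adjusted p = 0.44). After division by transcript length, ESCO2 accordingly made up 33.0% ± 3.7 (SD, n = 3) of the summed level of the 2 ESCO genes in ΔSCC4. Its share was 49.3% ± 8.5 in the double knockout and 42.3% ± 4.0 in control A. In set B it was 57.5% ± 4.4 in control B and 57.8% ± 2.1 in ΔWAPL 1.14, so the 2 control groups also differed in this share. These shares were not tested. Both genes were uneven in control B, where ESCO1 was at 25.9, 13.04 and 45.5 CPM, and ΔWAPL 1.14 had ESCO1 at 35.7, 31.5 and 35.9 CPM. The log2 fold change of ESCO1 in clone 1.14 was 0.28 (SE 0.37, adjusted p = 0.611) and passed only without control B replicate 3 (0.81, adjusted p = 0.0351). Against ΔWAPL 3.3, at 35.7, 47.97 and 44.2 CPM, the double knockout differed by -0.29 (SE 0.13, adjusted p = 0.203), and this passed only without ΔWAPL 3.3 replicate 1 (-0.41, adjusted p = 0.0477).

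HDAC8 (chromosome X, 71549366 to 71792951), the deacetylase that resets SMC3, was the steadiest gene of the set. Its 6 control samples ran from 41.8 to 46.7 CPM and both ΔWAPL clones overlapped their controls. The double knockout was lower, at 36.5, 39.2 and 36.3 CPM against 44.2, 44.9 and 43.4 CPM in control A and 42.3, 43.98 and 45.6 CPM in ΔSCC4. No double knockout sample reached a sample of either group, as was the case for 10.8% of all genes tested against control A and 22.2% against ΔSCC4. The differences of -0.25 (SE 0.11, adjusted p = 0.282) and -0.24 (SE 0.12, adjusted p = 0.161) did not pass. ΔWAPL 3.3, the parent clone, had HDAC8 at 48.2, 39.2 and 36.2 CPM and overlapped all 3 groups.

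The genes that guard cohesin against WAPL did not pass the threshold in either ΔWAPL clone without the GC content offset. CDCA5 (chromosome 11, 64833772 to 64851636) was at 214, 194 and 167 CPM in control A and at 172, 183 and 198 CPM in ΔWAPL 3.3. In set B it was at 167, 179 and 161 CPM in control B and at 152, 161.1 and 153 CPM in ΔWAPL 1.14. The groups overlapped in both sets, and the fit of both clones gave -0.09 (SE 0.07, 95% interval -0.24 to 0.06). SGO1 (chromosome 3, 20202085 to 20227698) was at 22.0, 31.2 and 36.5 CPM in control A, at 35.7, 31.6 and 25.9 CPM in ΔWAPL 3.3, and at 33.6, 34.2 and 34.9 CPM in ΔWAPL 1.14 beside 34.3, 25.6 and 41.2 CPM in control B. Over both clones it differed by 0.04 (SE 0.13, 95% interval -0.25 to 0.32). In clone 1.14 it went from 0.02 (SE 0.15) to -0.20 with the GC content offset and then passed (adjusted p = 0.0403, or 0.0492 with the replicate block added).

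SGO1 followed the order seen for ESCO2 in the SCC4 lines, without passing. It was at 17.9, 22.3 and 27.9 CPM in ΔSCC4 and at 28.6, 33.3 and 26.0 CPM in the double knockout, and these overlapped. The difference was 0.37 (SE 0.16, adjusted p = 0.104), and it passed only without ΔSCC4 replicate 3, the highest of that group (0.55, adjusted p = 0.00328). Against control A the log2 fold change in ΔSCC4 was -0.41 (SE 0.22, adjusted p = 0.285).

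The ΔSCC4 result depended on whether samples were compared by number. Samples of ΔSCC4 and control A with the same replicate number deviated together, with correlations of deviations of 0.84, 0.22 and 0.77, so the fit with the replicate number as a block is given beside the one without. Without the block 1 of 10 members passed and with it 6 did, while the share of all genes tested rose from 9.49% to 46.0%. Under the block ESCO2 fell by 0.54 (SE 0.09, adjusted p = 0.000762), SGO1 by 0.40 (SE 0.08, adjusted p = 0.00168), PDS5B by 0.28 (SE 0.08, adjusted p = 0.0124), WAPL by 0.23 (SE 0.06, adjusted p = 0.00672) and CDCA5 by 0.20 (SE 0.05, adjusted p = 0.00763). These changes are at most 1.45-fold, and nearly every second gene passed in this fit, so the count is no property of the regulators. NIPBL gave 0.11 (SE 0.09, adjusted p = 0.341) under the block, and ESCO1, HDAC8 and PDS5A did not pass. Leaving out control A replicate 1 from the fit without the block let ESCO2 (-0.73, adjusted p = 0.0119) and SGO1 (-0.59, adjusted p = 0.0355) pass.

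Much of the spread between replicates was shared among the regulators and followed the base composition of their transcripts. ESCO1, PDS5B, ESCO2, SGO1, NIPBL, WAPL and PDS5A have transcripts of 35.7% to 41.0% GC, and most of them deviated in the same direction in a given sample. ESCO1 departed from the others in several samples, and its deviations had a correlation of 0.36 with those of WAPL. In ΔWAPL 3.3 replicate 1, for example, it lay 0.24 below its group mean on the log2 scale while ESCO2 lay 0.45 above its own. Deviations from the group mean over the 18 samples, with PDS5A as the reference, had correlations of 0.98 for PDS5B, 0.93 for NIPBL, 0.91 for SGO1, 0.90 for ESCO2, 0.76 for WAPL and 0.71 for ESCO1. HDAC8, at 47.4% GC, had 0.00, and the GC-rich MAU2 (57.2%) and CDCA5 (55.1%) had -0.45 and -0.78. The MAU2 value includes ΔSCC4 samples with 5 to 15 reads of MAU2 and double knockout samples with 15 to 17. These correlations are descriptions, since the genes were measured in the same libraries.

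The same trend ran through all genes. Across 11452 genes the rank correlation of a sample's deviations with transcript GC content ranged from -0.69 in double knockout replicate 2 to 0.78 in ΔSCC4 replicate 1. Double knockout replicate 2 was the sample with the highest ESCO2 of its group, and ΔSCC4 replicate 1 the one with the lowest of its group. An offset for GC content in each sample, added after the data were seen, left ESCO2 in the double knockout against ΔSCC4 at 0.78 (adjusted p = 0.0025), and HDAC8 then passed at -0.30 (adjusted p = 0.00568). In ΔSCC4 against control A the offset and the block together again gave 6 of 10 members beside 46.0% of all genes tested. They were MAU2, ESCO2 (-0.48, adjusted p = 0.000223), SGO1 (-0.32), CDCA5 (-0.26), PDS5B (-0.25) and NIPBL (0.19, adjusted p = 0.0332), with WAPL no longer past the threshold (adjusted p = 0.062).

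**Figure D3:**
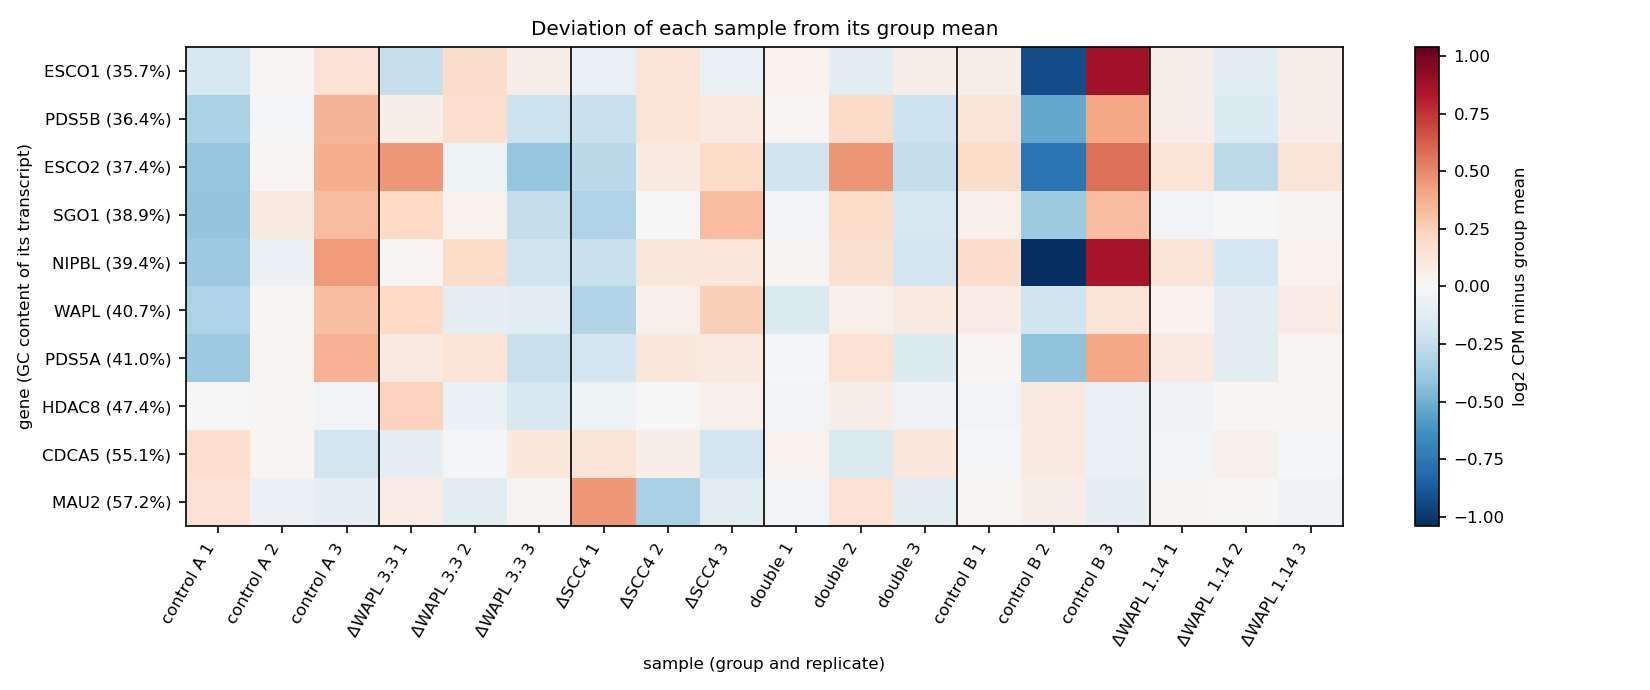
Deviation of log2 CPM from the group mean for the 10 regulators (rows, ordered by the GC content of the transcript) in the 18 samples (columns, by group and replicate), with red above and blue below the mean. Most of the 7 rows at 35.7% to 41.0% GC share their color in a given sample, with the strongest contrast between control B replicates 2 and 3, and CDCA5 and MAU2 mostly have the opposite color.

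Control A and control B, which are both unedited HAP1 cells, gave a measure of how far the regulators vary without any knockout. None of the 10 members passed between them and none had an unadjusted p under 0.05, beside 0.64% of all genes tested. The differences of the untargeted members ran from -0.41 for ESCO1 to 0.38 for ESCO2, and include any difference between the sets. In ΔWAPL 3.3 against control A the range was narrower, from -0.12 for HDAC8 to 0.19 for ESCO1. It was -0.12 to 0.67 in ΔWAPL 1.14 against control B and -0.55 to 0.08 in ΔSCC4 against control A. For the double knockout it was -0.25 to 0.33 against control A and -0.24 to 0.87 against ΔSCC4.

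The levels of the regulators in unedited cells differed by about an order of magnitude. Per kilobase of canonical transcript, over the 6 control samples, CDCA5 was highest at 72.8 ± 8.3 CPM per kb (SD, n = 6). PDS5A followed at 37.9 ± 9.1, HDAC8 at 25.1 ± 0.98 and WAPL at 17.4 ± 3.2 CPM per kb. No sample of one of the first 3 genes overlapped the next gene in this order. From WAPL on, neighbours overlapped: MAU2 was at 13.01 ± 1.1, PDS5B at 12.1 ± 3.0, SGO1 at 10.4 ± 2.3, NIPBL at 10.1 ± 4.1, ESCO1 at 7.24 ± 2.6 and ESCO2 at 7.10 ± 2.6 CPM per kb. Over the 6 control samples the ranges of the loader subunits NIPBL and MAU2 thus overlapped, as did those of ESCO1 and ESCO2. Within a sample, the length-scaled share of ESCO2 in the 2 ESCO genes was 38.3% to 46.4% in control A and 52.4% to 60.4% in control B. Ranks depend on the transcript length chosen, and HDAC8 moved to rank 10 when all annotated exons were counted as its length. With that length NIPBL was at 8.44 and MAU2 at 5.73 CPM per kb, and ESCO1 was at 6.15 and ESCO2 at 3.42 CPM per kb.

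The ring, mitotic, replication-coupled, chromatin partner, S phase and G2/M genes were examined as lists. Of the ring and STAG subunits, the proteins that make up cohesin itself, 6 or 7 of 9 were tested in each comparison. In ΔWAPL 3.3 none passed, with a list median of -0.01 beside 0.00 over all genes tested. SMC1A stood at -0.15 (SE 0.15), SMC3 at 0.15 (SE 0.15), RAD21 at 0.28 (SE 0.14), STAG1 at -0.46 (SE 0.16), STAG2 at 0.12 (SE 0.13) and REC8 at -0.29 (SE 0.26) there. In ΔWAPL 1.14, 2 meiotic subunits with few reads passed, REC8 at 0.91 (SE 0.18, adjusted p = 0.0132) and STAG3 at -1.58 (SE 0.33, adjusted p = 0.0146), while SMC1A (-0.04), SMC3 (0.48), RAD21 (0.38), STAG1 (0.33) and STAG2 (0.53) did not. In that clone 20.1% of all genes tested passed. Over the 18 samples REC8 ran from 1.02 to 3.05 CPM and STAG3 from 0.12 to 1.28 CPM. With both clones together 1 of the 7 tested rose and 1 fell, beside 17.7% of all genes tested. The one that rose was RAD21, the kleisin that closes the ring, by 0.34 (SE 0.10, adjusted p = 0.0301).

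STAG1, one of the alternative subunits that bind the ring and CTCF, was higher in ΔSCC4 than in control A and in the double knockout. It rose from 95.1 ± 13.5 CPM (SD, n = 3) in control A to 155 ± 12.5 CPM in ΔSCC4, a log2 fold change of 0.69 (SE 0.14, adjusted p = 0.0108). In the double knockout it was at 89.4 ± 12.4 CPM and fell against ΔSCC4 by 0.79 (SE 0.13, adjusted p = 0.000232). Its paralog STAG2 did not pass in either comparison (0.19, SE 0.13, and -0.15, SE 0.12). SMC1A rose in the double knockout against ΔSCC4 by 0.39 (SE 0.13, adjusted p = 0.0377) and REC8 by 0.72 (SE 0.25, adjusted p = 0.0411), with SMC3 (0.11), RAD21 (0.01) and STAG3 (0.17) not past the threshold. In the double knockout against control A none of the 7 tested passed.

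Lists of DNA replication genes had negative medians in ΔSCC4 against control A and positive ones in the double knockout against ΔSCC4, the signs that ESCO2 had. Of 14 S phase genes, 3 fell in ΔSCC4 against control A: CDC6 by 0.69 (SE 0.13, adjusted p = 0.00578), MCM6 by 0.55 (SE 0.12, adjusted p = 0.0125) and MCM4 by 0.51 (SE 0.11, adjusted p = 0.0116). CDC6 loads the replicative helicase, and MCM4 and MCM6 are subunits of it. Of all 12503 genes tested 504 fell in that comparison. The median of the list was -0.35 beside -0.01 over all genes tested, and with the replicate block 13 of 14 fell. Under the block 2960 of all 12503 genes tested fell and 46.0% passed in either direction. Of 12 genes that couple cohesion to replication none passed, with a median of -0.36, and with the block 10 fell and 1 rose. Of 15 G2/M genes none passed, with a median of -0.20, and with the block 11 fell and 1 rose. With block and GC content offset together 6 G2/M genes fell and 1 rose, with a median of -0.10, beside 46.0% of all genes tested past the threshold. In that fit 13 S phase genes and 10 replication-coupled genes fell and none rose.

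In the double knockout against ΔSCC4, 6 of 14 S phase genes and 8 of 12 replication-coupled genes rose and none fell, with list medians of 0.30 and 0.39, while of all 12604 genes tested 1732 rose and 1715 fell. CDC6 rose by 0.75 (SE 0.13, adjusted p = 0.00029), MCM4 by 0.54 (SE 0.11, adjusted p = 0.00159) and SLBP, which binds histone mRNA, by 0.50 (SE 0.11, adjusted p = 0.00347). CLSPN, a checkpoint mediator at the fork, rose by 0.93 (SE 0.21, adjusted p = 0.00338) and DSCC1, a subunit of a PCNA loader needed for cohesion, by 0.57 (SE 0.13, adjusted p = 0.0041). Of 15 G2/M genes 0 passed, with a median of 0.04. Both comparisons use the same ΔSCC4 samples, so they are not independent of each other. The part of these replication genes in the ESCO2 difference was not tested.

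**Figure D4:**
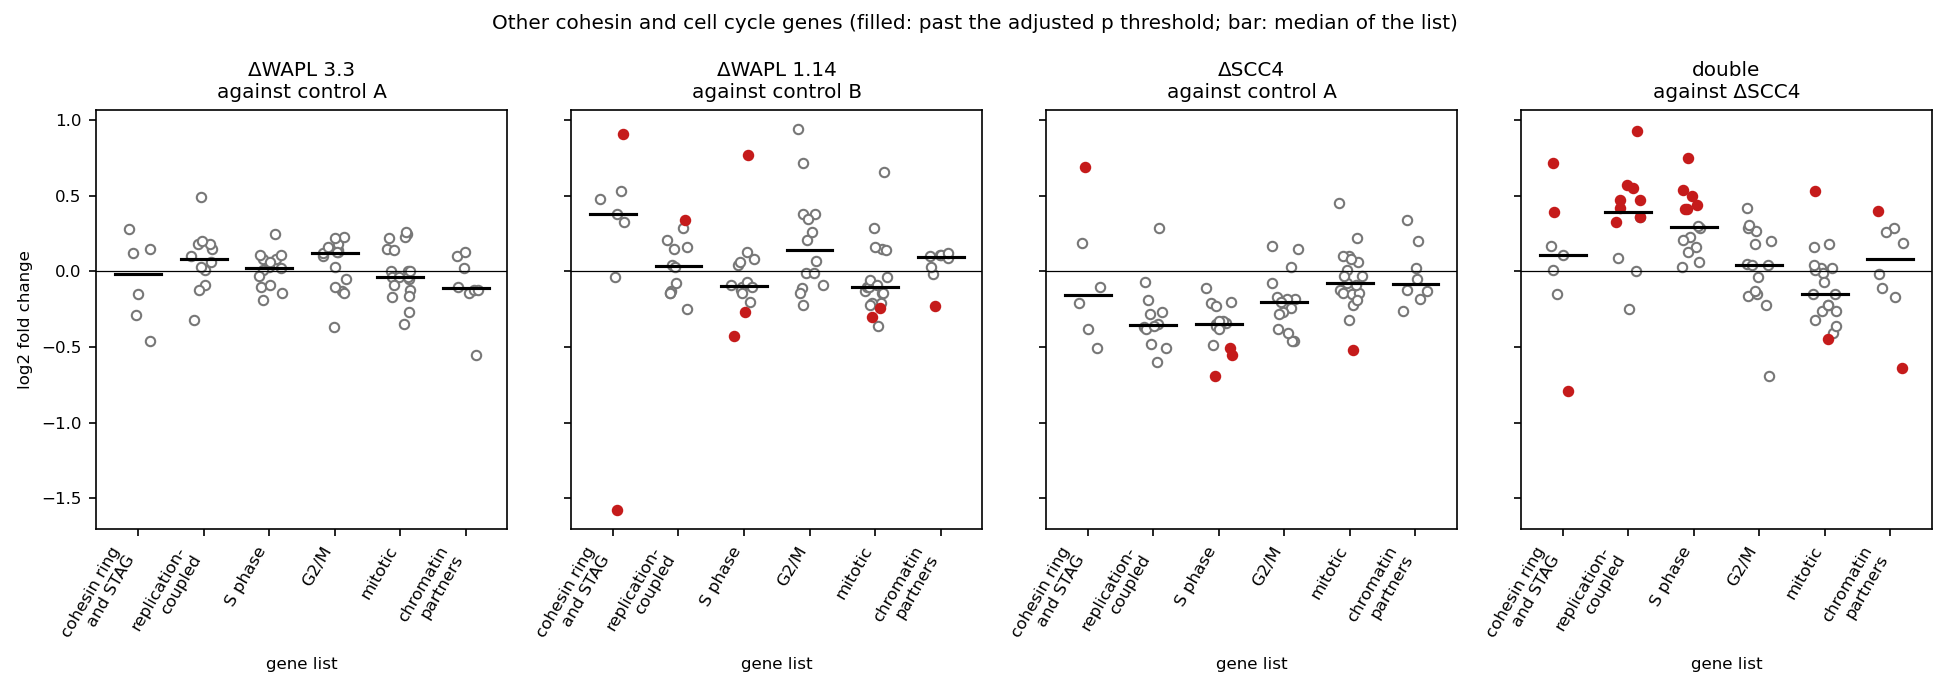
Log2 fold change (y axis) of the genes of 6 lists (x axis) in 4 comparisons, with 1 point per gene tested, filled when past the adjusted p threshold, and a bar at the median of the list. In ΔSCC4 the replication-coupled and S phase lists have medians of -0.36 and -0.35, and in the double knockout against ΔSCC4 they have medians of 0.39 and 0.30.

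Against control A the double knockout showed little of either pattern. S phase genes had a median of -0.06 with none of 14 past the threshold, and of the replication-coupled genes 1 of 12 passed, CHTF18 (0.78, SE 0.14, adjusted p = 0.00536), a subunit of the same PCNA loader as DSCC1. Of all genes tested 7.95% passed in the double knockout against control A. In ΔWAPL 3.3 no tested gene of the 6 cohesin and cell cycle lists passed, beside 8.07% of all genes tested. In ΔWAPL 1.14, where 20.1% of all genes tested passed, 1 of 14 S phase genes rose and 2 fell. CCNE2, a cyclin of the G1 to S transition, rose by 0.77 (SE 0.22, adjusted p = 0.0459), and MCM6 fell by 0.43 (SE 0.06, adjusted p = 0.00325). Of 12 replication-coupled genes 1 rose, CHTF18 by 0.34 (SE 0.09, adjusted p = 0.031). Of 19 mitotic protection and cleavage genes 2 fell in ΔWAPL 1.14, AURKB by 0.30 (SE 0.08, adjusted p = 0.0441) and PPP2R5D by 0.24 (SE 0.06, adjusted p = 0.0354). Against its parent clone the double knockout had lower CDK1, the mitotic kinase, by 0.50 (SE 0.11, adjusted p = 0.0074), and lower SGO2, the paralog of SGO1, by 0.47 (SE 0.12, adjusted p = 0.0157). CDK1 and SGO2 were the 2 of 19 mitotic genes that passed there. Of the 15 G2/M genes 2 fell in the same comparison. They were TOP2A, by 0.47 (SE 0.11, adjusted p = 0.012), and TTK, by 0.40 (SE 0.12, adjusted p = 0.0479). As 10.6% of all genes tested passed in that comparison, both counts are near the share of all genes.

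BUB1, the checkpoint kinase whose histone mark recruits shugoshin, fell in ΔSCC4 against control A by 0.52 (SE 0.15, adjusted p = 0.0482) and was higher in the double knockout than in ΔSCC4 by 0.53 (SE 0.13, adjusted p = 0.00653). It was the only mitotic gene past the threshold in ΔSCC4, and in the double knockout against ΔSCC4 it was joined by PPP2R1A, the scaffold of the phosphatase that works with shugoshin, which fell by 0.45 (SE 0.13, adjusted p = 0.0163). In ΔSCC4 against control A 9.49% of all genes tested passed, and in the double knockout against ΔSCC4 27.3% did. Of 8 chromatin partners of cohesin and its loader, none passed in ΔWAPL 3.3 or in ΔSCC4. MED12, a subunit of the Mediator kinase module, fell in ΔWAPL 1.14 by 0.23 (SE 0.05, adjusted p = 0.0193) and in the double knockout against ΔSCC4 by 0.64 (SE 0.13, adjusted p = 0.00155), where the chromatin remodeler CHD8 rose by 0.40 (SE 0.13, adjusted p = 0.034).

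Genes whose log2 CPM over the 18 samples ran most like a member were listed as a description, with no test, because they share libraries and base composition with it. Of 11562 genes, NIPBL was most like TRPM7 (r = 0.990), PDS5A like AHCTF1 (r = 0.976), SGO1 like SNAPC3 (r = 0.974) and CDCA5 like ENO1 (r = 0.972). MAU2, whose RNA was almost absent from 6 samples, was most like EFNB1 (r = 0.965), and WAPL was most like GPM6B (r = 0.949). HDAC8 had the weakest best match, MRFAP1L1 (r = 0.888).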

How the data were processed

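Polyadenylated RNA was made into strand-specific libraries. Per the labels the authors aligned reads to hg19 with TopHat2 (2.0.9 in the submitters' processing notes, another release in the study's methods) and deposited raw HTSeq counts of reads per gene. Lines without a gene, 20.34% to 22.62% of each file, were left out. Of 20329 identifiers 96.6% were matched to GENCODE on GRCh37. The total count was 10007646 to 20711127 (median 16177867), which limits precision for genes with few reads. The p-values and intervals hold no spread between lines.

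Counts were tested with edgeR 4.0.16 (R 4.3.3), with TMM scaling, filterByExpr and the quasi-likelihood test, fitted on the samples of each comparison. SE was taken from the F statistic, by dividing the size of the fold change (log2) by the root of F. Log2 CPM has a prior count of 2. Exact permutation tests of 3 against 3 cannot go below p = 0.1 and were not used. The alternatives were DESeq2 1.42.0, size factors from DESeq2 in edgeR, every gene kept, a minimum of 10 counts in each sample, all 18 samples in 1 fit, a block for the replicate number, each replicate left out and, added after seeing the data, a GC content offset (loess over transcript GC, span 0.4) with and without the block. The fits were tested on simulated data.

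The members and gene lists were chosen with earlier results of these data known. All 10 members are named. Of other lists at most 4 genes past the threshold per comparison are named, those with the largest change, and all tested ring subunits, neighbours within 250 kb of WAPL or MAU2 that passed, and the genes most like a member. Groups came from the labels, which mark controls as A or B but do not tie them to a knockout, so each knockout was put in set A or B by the sequencing run that its deposited counts share with those controls. Results that need some withheld genes are not reported here. Same-numbered samples deviated together (every correlation above 0.1) for ΔSCC4 with control A (0.84, 0.22 and 0.77) and for ΔWAPL 1.14 with control B (0.13, 0.48 and 0.33), from the data and not from the labels, and not for the other pairs of groups. No pair of samples was identical, and the chi-square between replicates, divided by its degrees of freedom, was 1.63 to 54.21. Guides came from the labels and were matched to GRCh37.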

Additional observations from a re-analysis of the deposited data

How the results depend on the processing

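Over all alternatives, 1545 log2 fold changes of members kept their direction or stayed uncalled and their side of the threshold, 27 newly passed, 0 were lost and 5 reversed. The reversals came with the GC content offset: PDS5B (-0.17) and SGO1 (-0.20) in ΔWAPL 1.14, the same genes with the replicate block added (-0.17 and -0.20), and PDS5B over both clones (-0.20). The cause was not tested. The number of members past the threshold went from 1 to 4 in ΔWAPL 1.14 and from 1 to 2 over both clones with the offset, and to 4 in ΔWAPL 1.14 with block and offset. The difference between clones went from 0 to 1 with the offset, and the interaction from 0 to 2, and to 1 with the block added. In ΔSCC4 it went from 1 to 0 with at least 10 counts in every sample, which removes MAU2, to 6 with the replicate block, to 3 with the offset and to 6 with both. Leaving out each replicate gave 1 to 4 members in ΔWAPL 1.14, 1 to 3 in ΔSCC4, 1 to 2 in the double knockout against ΔWAPL 3.3 and 2 to 3 against ΔSCC4. The block changed no other call of a member.

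Genes past the threshold, counted over all genes, moved by over 1.5 times as follows. ΔWAPL 3.3 went from 1008 to 1753 with 1 fit over all samples and to 1602 with the offset. ΔWAPL 1.14 went from 2536 to 4317 with block and offset, and from 1415 to 4820 when replicates were left out (4820 without control B replicate 3, 1523 without control B replicate 1, 1415 without ΔWAPL 1.14 replicate 1, 1473 without its replicate 3). The clone difference went from 339 to 211 with at least 10 counts, 173 with the block, 706 with the offset and 218 without ΔWAPL 1.14 replicate 1. ΔSCC4 went from 1186 to 2556 with 1 fit, 5754 with the block, 2564 with the offset, 5754 with both, 2317 without control A replicate 1 and 662 without control A replicate 2. The double knockout against control A went from 1001 to 1714 with the offset, 1552 and 634 without control A replicates 1 and 2, and 586 without double knockout replicate 1. Against ΔWAPL 3.3 it went from 1330 to 2562 with the offset, 2371 with both and 861 without ΔWAPL 3.3 replicate 2. Against ΔSCC4 it went from 3447 to 5213 with the offset, 2080 without ΔSCC4 replicate 2 and 2244 without double knockout replicate 1. The interaction went from 1453 to 3292 with the offset and 2936 with both. Control B against control A went from 80 to 168 with DESeq2, 127 with no filter, 408 with 1 fit, 162 with the block, 264 with the offset, 177 with both, and to 9, 0 and 22 without control A replicates 1 and 2 and control B replicate 1.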

Other observations

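Genes lying within 250 kb of the edited genes were examined for change. Of 4 neighbours of WAPL 2 were tested, and neither passed in ΔWAPL 3.3, in ΔWAPL 1.14 or over both clones. GRID1, a glutamate receptor subunit, fell by 0.58 (SE 0.15, adjusted p = 0.0076) in the double knockout against ΔSCC4. Of 18 neighbours of MAU2 10 were tested in ΔSCC4 against control A, and none passed, with differences from -0.45 to 0.42 (edgeR). In the double knockout against ΔSCC4, PBX4, a homeobox cofactor, rose by 0.83 (SE 0.20, adjusted p = 0.00517), while SUGP1, the nearest upstream gene, fell by 0.45 (SE 0.14, adjusted p = 0.0226) and RFXANK, a factor of MHC class II genes, by 0.47 (SE 0.15, adjusted p = 0.024).

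PBX4 also passed in other comparisons. In ΔWAPL 1.14 against control B, where MAU2 was intact on both sides, it fell by 1.01 (SE 0.14, adjusted p = 0.00254). It rose by 0.76 (SE 0.19, adjusted p = 0.0145) in the double knockout against ΔWAPL 3.3. Its interaction of WAPL and SCC4 loss was 1.22 (SE 0.25, adjusted p = 0.00409).

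Of 3 markers of other lineages, COL1A2 did not reach the filter on low counts in any comparison. The epithelial marker EPCAM fell in both ΔWAPL clones, with log2 fold changes of -1.93 (SE 0.42, adjusted p = 0.00834) in clone 3.3 and -3.89 (SE 0.34, adjusted p = 0.000322) in clone 1.14, from levels of at most 1.76 CPM. COL1A1, a collagen gene, reached 32.0 CPM at most and rose by 1.15 (SE 0.13, adjusted p = 0.0002) in the double knockout against control A.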
